A study of Mus musculus with 3 samples.

Results

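The 10 JAK, STAT and SOCS genes of the pathway that carries the thrombopoietin signal were followed in the open chromatin of hematopoietic stem cells (HSCs). They are 4 Janus kinases (Jak1, Jak2, Jak3, Tyk2), 3 signal transducers and activators of transcription (Stat3, Stat5a, Stat5b) and 3 suppressors of cytokine signalling (Socs1, Socs2, Socs3). They were chosen by name and role, not by a measured value, from 21728 protein-coding genes on chromosomes 1 to 19 and X. Earlier results of these data were known when the choice was made. For each gene the fragments over its body and 30 kb on either side were counted in bins of 500 bp.

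The cells were wild-type long-term HSCs from the bone marrow of 8-week-old female mice of the C57BL/6J strain. They were enriched for c-Kit with magnetic beads and sorted as LSK CD150+ CD48- CD34-. The cells of 1 preparation went through DOGMA-seq, which reads transposase-accessible DNA (ATAC), RNA and antibody tags from the same permeabilised cells. No source used here states how many mice were pooled. There is 1 ATAC library and no value below has a replicate, so no test was made between genes or cells.

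The ATAC library held 3757 barcodes called as cells, of which 3108 (82.7%) had more than 3000 fragments in peaks and were kept. They carried 37137164 fragments, with a median of 11442 per cell, and all kept barcodes also had RNA counts. A promoter was called open at 71 fragments or more over 1000 bp, 5 times the genome mean. By this rule 61.3% of all protein-coding promoters were open. Promoters of HSC genes were open in 6 of 7 cases, from 2.67 fragments per 1000000 (fpm) at Slamf1 to 45.8 at Hlf, and the exception was Ly6a at 0.862. Of the open ones, Slamf1 and Procr lay below the median promoter, at percentiles 41.2 and 46.7. The genes that define B cells, T cells, and neutrophils and monocytes were open in 0 of 10 cases, and the highest of them was Itgam at 1.24. All 3 megakaryocyte genes (Pf4, Gp9 and Itga2b) were open, at 12.6 to 27.0, as were 2 of 3 erythroid genes, at 1.91 and 2.88. The lower of these erythroid genes, Klf1, held 71 fragments, the least that is called open. Of the genes whose proteins the gate excluded, Cd34 was open at 5.33 and Cd48 was not, at 1.29.

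Thrombopoietin is a cytokine that acts on HSCs and megakaryocytes. Cytokine receptors of this kind have no kinase of their own, and thrombopoietin signals through Jak2, with Tyk2 as a second kinase. The kinases phosphorylate STAT proteins, which form dimers, enter the nucleus and bind DNA at palindromes of the form TTCNNNGAA. Stat5a and Stat5b are neighbouring copies of 1 ancestral gene. Among the genes that STAT proteins switch on are those of the SOCS family, whose products bind the receptor or the kinase and end the signal. Jak3 is known for its work with the cytokine receptors of lymphocytes that share the common gamma chain, and Jak1 serves many cytokine receptors. Stat3 acts below receptors of the interleukin-6 type and others.

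The promoter sequences below show the stretches that the counts turn on. They are RefSeq promoters of build GRCm38, from 250 bases before to 50 bases after a transcript start, written 5′ to 3′ on the strand of the gene, and all coordinates are of that build (mm10). In all, 9 members had 11 such entries. Socs2 had none. Capitals mark every match on either strand to TTCNNNGAA, the STAT palindrome, and to 4 strings of factors that act in blood cells. These are AGATAA for Gata factors, TGTGGT for Runx factors, CCGGAA for Ets factors and TGACTCA for AP-1. Stat3 is shown as the most accessible promoter of the 10 genes (chr11:100939491-100939790, minus strand, 3606 fragments), Socs1 as the second by level over 1000 bp (chr16:10785487-10785786, minus strand, 930 fragments), and Socs3 as the one with a STAT palindrome (chr11:117969317-117969616, minus strand, 730 fragments).
Stat3 promoter: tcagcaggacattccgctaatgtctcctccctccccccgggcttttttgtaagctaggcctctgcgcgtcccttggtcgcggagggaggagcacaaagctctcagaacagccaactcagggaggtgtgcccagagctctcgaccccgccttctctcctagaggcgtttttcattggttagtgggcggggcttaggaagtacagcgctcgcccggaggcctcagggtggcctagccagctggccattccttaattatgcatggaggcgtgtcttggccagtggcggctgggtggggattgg
Socs1 promoter: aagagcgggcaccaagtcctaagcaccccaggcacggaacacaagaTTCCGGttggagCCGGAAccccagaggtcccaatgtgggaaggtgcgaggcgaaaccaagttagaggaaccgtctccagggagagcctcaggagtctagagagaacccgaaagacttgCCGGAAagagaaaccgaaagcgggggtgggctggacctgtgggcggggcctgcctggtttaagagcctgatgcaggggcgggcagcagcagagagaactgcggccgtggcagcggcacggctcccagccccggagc
Socs3 promoter: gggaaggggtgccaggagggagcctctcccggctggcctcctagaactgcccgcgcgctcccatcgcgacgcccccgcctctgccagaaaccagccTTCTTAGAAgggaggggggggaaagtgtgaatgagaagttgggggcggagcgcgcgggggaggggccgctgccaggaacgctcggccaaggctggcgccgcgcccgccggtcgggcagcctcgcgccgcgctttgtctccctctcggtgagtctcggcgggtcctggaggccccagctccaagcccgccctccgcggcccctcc

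Stat5a has 2 entries and is shown with both, because most of its fragments lay at the inner one. The outer start (chr11:100859406-100859705, plus strand) had 89 fragments (95% interval 71.5 to 109.5) over its 300 bases, and the inner start (chr11:100860234-100860533, plus strand) had 850 (794 to 909). The inner start of Stat5b (chr11:100822521-100822820, minus strand) had 88 fragments (70.6 to 108) and is shown because its sequence matches that of the inner Stat5a start.
Stat5a outer promoter: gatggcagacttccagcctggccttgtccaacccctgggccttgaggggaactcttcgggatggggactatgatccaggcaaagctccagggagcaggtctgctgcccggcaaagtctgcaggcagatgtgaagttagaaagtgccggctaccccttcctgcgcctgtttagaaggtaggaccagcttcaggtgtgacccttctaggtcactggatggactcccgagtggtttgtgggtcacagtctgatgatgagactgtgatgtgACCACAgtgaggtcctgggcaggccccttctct
Stat5a inner promoter: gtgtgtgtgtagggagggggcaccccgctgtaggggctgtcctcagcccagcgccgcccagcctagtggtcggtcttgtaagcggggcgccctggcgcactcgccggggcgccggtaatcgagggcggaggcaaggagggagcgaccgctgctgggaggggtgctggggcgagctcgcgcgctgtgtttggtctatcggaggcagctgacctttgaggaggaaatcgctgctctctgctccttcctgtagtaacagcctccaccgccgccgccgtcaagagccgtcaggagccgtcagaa
Stat5b inner promoter: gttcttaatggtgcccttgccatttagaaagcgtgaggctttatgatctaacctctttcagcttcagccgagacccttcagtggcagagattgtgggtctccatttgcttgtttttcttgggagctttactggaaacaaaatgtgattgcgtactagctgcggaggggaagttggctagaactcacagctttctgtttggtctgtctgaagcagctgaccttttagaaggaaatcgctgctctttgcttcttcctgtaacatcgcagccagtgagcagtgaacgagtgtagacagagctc

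The inner promoters of Stat5a and Stat5b shared a gapless stretch of 65 bases with 58 identical (89.2%), which ended at position 249 of the 300, just before the inner Stat5a start. The best gapless match of the outer promoters was 17 bases long. The outer Stat5b entry (chr11:100850532-100850831, minus strand) had 314 fragments. At Stat5a the inner start thus had more fragments than the outer, and at Stat5b fewer.

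Promoter level was counted as the fragments whose midpoint lay within 500 bp of the start of the principal protein-coding transcript, per 1000000 fragments of the kept cells (fpm), so that all genes were read over the same 1000 bp. A promoter was called open at 5 times the genome mean, which is 71 fragments. All 10 members were open, as were 61.3% of all protein-coding promoters. The median of the members was 44.6 fpm, against 6.06 over all protein-coding promoters and 19.2 over the open ones. Intervals below are exact 95% Poisson or binomial intervals that cover counting error only.

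Among the kinases, the promoter of Jak2, the main kinase of the thrombopoietin signal, was the highest. The window around its start (gene at chr19:29251828-29313080) held 2604 fragments or 70.1 fpm (67.5 to 72.9), and 51.0% of cells (49.3 to 52.8) had at least 1 of them. Jak1 (chr4:101152367-101265282) held 1735 fragments or 46.7 fpm (44.55 to 48.97), seen in 39.5% of cells. Jak3 (chr8:71676296-71690575) had 1041 fragments, 28.03 fpm (26.4 to 29.8), in 24.7% of cells. Tyk2 (chr9:21104068-21131243) was the lowest kinase, with 727 fragments, 19.6 fpm (18.2 to 21.1), in 18.2% of cells. No intervals of the 4 kinases overlapped. For comparison, the share of cells with a fragment had a median of 0.0965% over the 8403 promoters that were not open.

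The STAT factors spanned the whole range of the 10 genes. Stat3 (chr11:100885098-100939540) held 5724 fragments, 154 fpm (150.2 to 158), in 80.4% of cells (78.9 to 81.8), and 52.7% of cells had 2 or more. With each cell counted at most once the level was 67.3, and among short fragments only (shorter than the DNA wrapped in 1 nucleosome), scaled to their own total, it was 266. Its promoter ranked 19 of 21728, and the highest promoter of all had 195 fpm. Stat5b (chr11:100780731-100850724) held 820 fragments, 22.1 fpm (20.6 to 23.6), in 20.4% of cells. Stat5a (chr11:100859351-100885169) held 282 fragments, 7.59 fpm (6.73 to 8.53), in 7.85% of cells (6.93 to 8.85). Read at its principal start, Stat5a therefore lay close to the median of all promoters, at percentile 53.1.

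The low value of Stat5a depended on the choice of start. Within 100 bp of the principal start there were 98 fragments, and within 100 bp of a pair of inner protein-coding starts, at 994 and 1133 bp downstream, there were 607 and 544. When each member was read at its annotated start with the most fragments, an alternative chosen after seeing the data, Stat5a had 32.6 fpm, a change of 4.29-fold. It then stood in seventh place, above Jak3 at 29.6, and Tyk2 at 19.6 became the lowest. Stat3 remained the highest at 154.

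The 3 SOCS promoters ranked 2, 4 and 6 among the 10. Socs1 (chr16:10782240-10785536), whose product blocks the kinase domain of JAK proteins, held 3114 fragments, 83.9 fpm (80.9 to 86.9), in 58.6% of cells. Socs2 (chr10:95385362-95417180), best known as a brake on growth hormone signalling and as a STAT5 target gene, held 1993 fragments, 53.7 fpm (51.3 to 56.1), in 43.6% of cells. Socs3 (chr11:117966079-117970047), the inhibitor that acts at receptors of the interleukin-6 type, held 1576 fragments, 42.4 fpm (40.4 to 44.6), in 35.5% of cells. At the outermost annotated start of Socs3, at -861 bp, the level was 18.01 fpm (negative distances are upstream).

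In descending order the levels ran Stat3, Socs1, Jak2, Socs2, Jak1, Socs3, Jak3, Stat5b, Tyk2 and Stat5a. The intervals of neighbours in this order overlapped only for Jak1 and Socs3 and for Stat5b and Tyk2. The largest step between neighbours was the last, 2.58-fold from Tyk2 to Stat5a, followed by the first, 1.84-fold from Stat3 to Socs1.

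**Figure D1:**
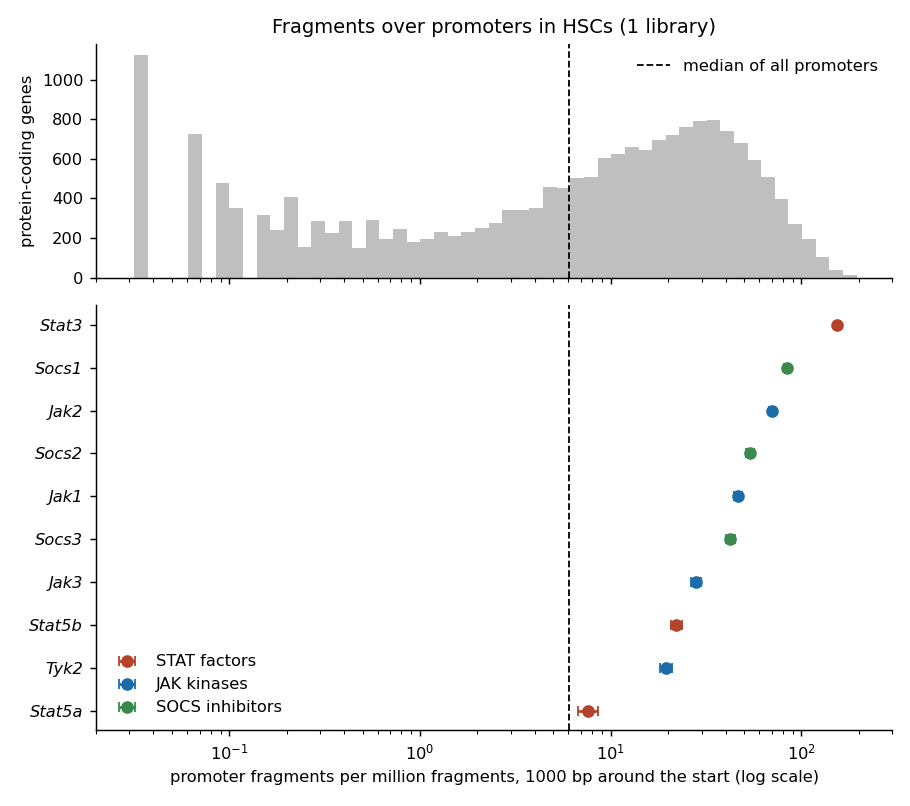
Promoter levels of the 10 genes (lower panel; points with exact 95% Poisson intervals, colours by role) beside the distribution over protein-coding genes (upper panel, counts of genes; 1905 genes with no fragment are left off the log axis). The x axis is fpm over 1000 bp around the principal start; all 10 points lie to the right of the dashed median of 6.06, from 7.59 for Stat5a to 154 for Stat3.

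The densest 100 bp of fragment ends lay at or just upstream of the principal start for 7 of the 10 genes and downstream of it for 3. The densest 100 bp was centred at -10 bp at Socs1, -30 bp at Jak1, -90 bp at Tyk2, -130 bp at Socs3 and -150 bp at Jak2 and Stat3, and at 10 bp at Socs2. It was centred at 210 bp at Stat5b, 390 bp at Jak3 and 1050 bp at Stat5a. Socs1 was also accessible downstream, where 58.8% of its ends within 1500 bp lay. Further peaks there stood at 310 bp (463 ends per 20 bp) and 390 bp (403). The densest 200 bases of Socs1 by fragment midpoint (chr16:10785161-10785360, 1013 fragments) also lay downstream. At Jak3 the start of a retained-intron transcript 256 bp downstream had 486 fragments within 100 bp against 159 at the principal start. At Tyk2 the start of a protein-coding transcript 3886 bp downstream had 0 fragments, which allows up to 3. At Jak1 the starts of noncoding transcripts 79857 and 110163 bp downstream had 12 and 8.

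**Figure D2:**
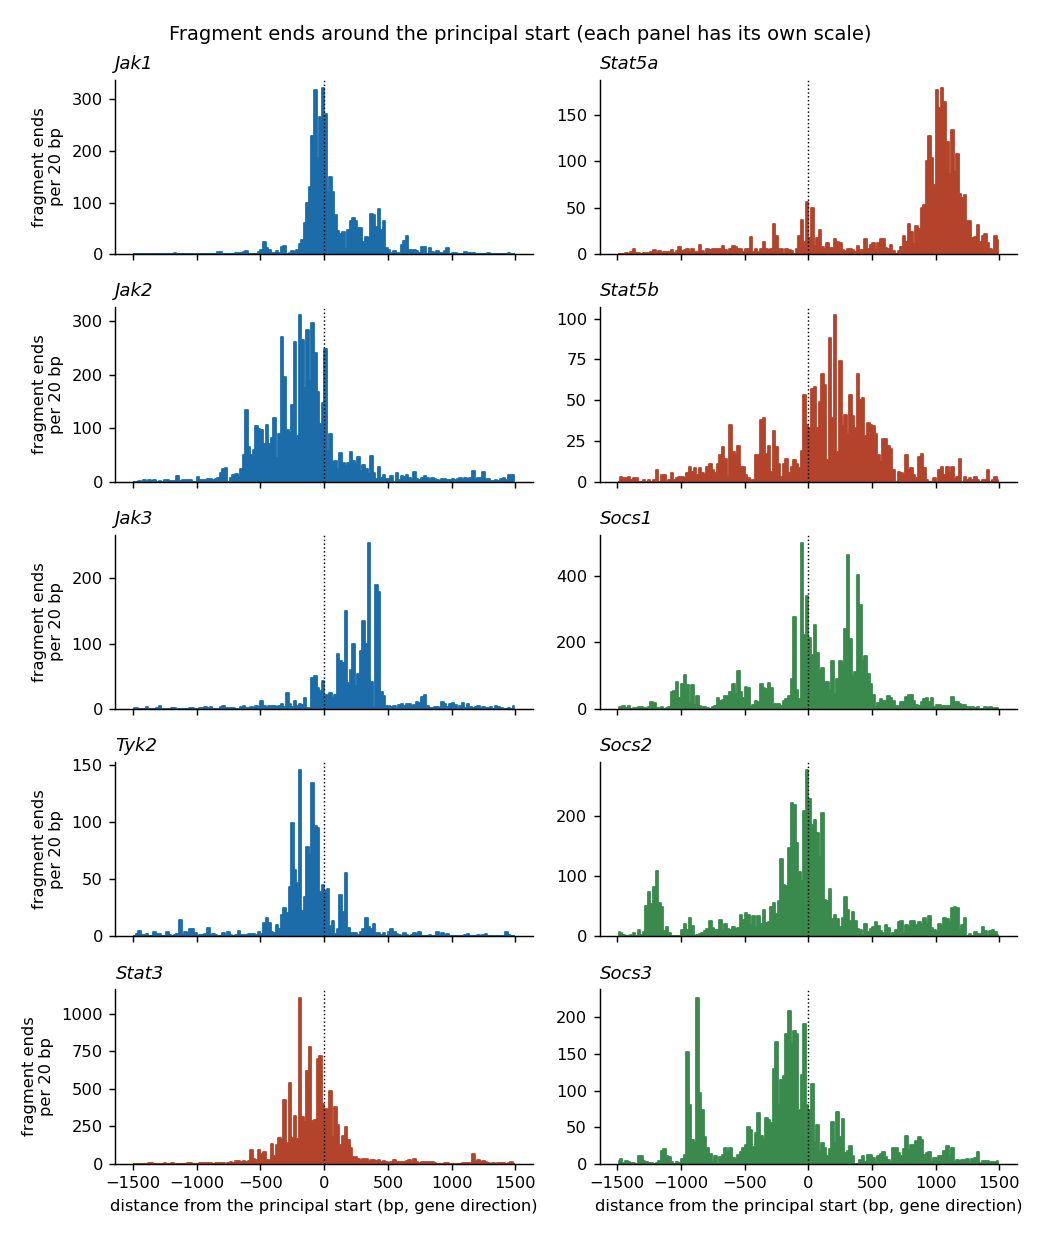
Fragment ends per 20 bp within 1500 bp of the principal start of each gene, in the direction of the gene, with the start as a dotted line; colours mark kinases, STAT factors and SOCS inhibitors, and each panel has its own y scale. The main peak lies at or upstream of the line in most panels and downstream at Stat5b, at Jak3 (centre at 390 bp) and at Stat5a (centre at 1050 bp), which has a small second peak at the line. Socs1 has further peaks downstream, at 310 and 390 bp.

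Short fragments made up 58.0% of all fragments in open promoter bins of the genome when these were pooled, and 39.5% in the median open promoter bin. At the Stat3 promoter they made up 78.6% (77.5 to 79.6). At the Stat5a principal start they made up 40.8% (35.0 to 46.8) and at Stat5b 48.5% (45.1 to 52.0). The other 7 members ranged from 57.6% at Socs1 to 64.2% at Jak1. When only these short fragments were counted the order of the members changed in 1 place, with Tyk2 (26.1 per 1000000 short fragments) ahead of Stat5b.

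The promoter levels also gave the number of the 10 genes seen in a cell. The median cell had a fragment at 4 of the 10 promoters, with a range of 0 to 10, and 26 cells (0.837%) had none. After each cell was thinned to 3000 fragments the median was 1, and the Stat3 promoter was seen in 38.3% of cells, Socs1 in 22.4% and Stat5a in 2.41%. Cells were also ranked by depth and divided into 4 groups of 775 to 778, whose median cells had 7455 to 15517 fragments. The Stat3 promoter held 186 fpm in the shallowest group, 168 and 151 in the next and 136 in the deepest. Socs1 went from 93.4 to 75.3 and Socs2 from 61.6 to 45.7 over the same groups, whereas Stat5a had 5.60, 6.43, 9.74 and 7.57 from the shallowest to the deepest. Stat3 was the highest and Stat5a the lowest member in each group. The part of depth in these values was not tested.

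The whole windows of the 10 genes, promoters included, were rich in open bins. A bin was called open at 36 fragments, 5 times the genome mean of 7.05. Of the 1797 bins in the windows, 223 (12.4%) were open, where 2.35% of all bins and 3.70% of bins in such windows around all protein-coding genes were open. Of the 223, 59 belonged to sites at promoters of the members, 30 to sites at other promoters and 134 to distal sites (defined below). The windows held 68.9 fragments per kb, and the genome 14.1. Socs3 and Jak3 had the largest open shares, 24.8% and 24.7% of their bins, both at percentile 97.0 of protein-coding genes. Stat3 had 15.7% and Stat5a 15.6%, Socs1 14.8%, Tyk2 12.6% and Stat5b 11.1%. The lowest were Socs2 at 7.57%, Jak1 at 7.49% and Jak2 at 6.15%, all above the median gene at 4.47%. The windows of Stat5b, Stat5a and Stat3, which lie side by side on chromosome 11, overlap, and their shared bins were counted once in the totals.

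Adjacent open bins were joined into 96 sites. Of these, 11 lay within 500 bp of a start of a member and held 26185 fragments, 12 lay at the promoter of a gene other than the 10 and held 6967, and 73 were distal to any protein-coding start and held 15925. Of the fragments at the members' own promoter sites and distal sites, 37.8% (37.4 to 38.3) were distal. The distal sites held 36 to 1657 fragments each, with a median of 135, and 20 of them held at least 200. By position, 34 lay in the body of a member, 17 in another protein-coding gene and 22 between genes.

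Among the kinases, Jak2 had the lowest distal share and Jak3 the highest. The distal share was 9.496% (8.58 to 10.5) at Jak2, where 4 distal sites held 362 fragments beside 3450 at the promoter site. At Jak3 it was 77.5% (76.4 to 78.6), where 8 distal sites held 4106 fragments beside 1191. Tyk2 had a distal share of 65.4%, Jak1 of 55.7%, Socs3 of 54.03%, Stat3 of 32.9%, Stat5b of 30.6%, Socs1 of 19.2% and Socs2 of 8.71%. No distal site was assigned to Stat5a, since its body had none and the sites in its flanks lie in Stat5b and Stat3. None of the distal sites of Tyk2 lay in Tyk2 itself, and most of those of Jak3 lay in neighbouring genes. The shares also depend on the flank: with 10 kb in place of 30 kb the share over all 10 genes was 25.2%. Which gene a distal site serves was not tested.

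**Figure D3:**
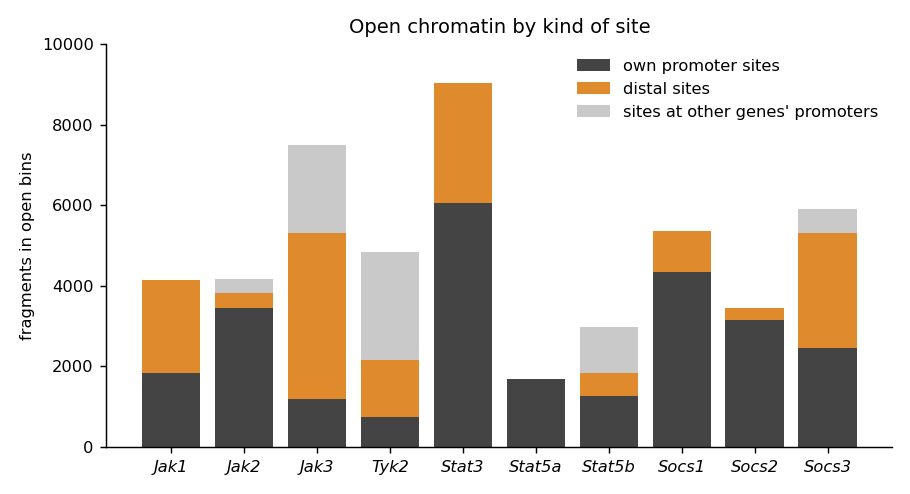
Fragments in open bins of each gene, stacked by kind of site: at the gene's own promoters, distal to protein-coding starts, and at promoters of genes in the window that are not among the 10; each site is counted under 1 gene, so in the overlapping windows of Stat5b, Stat5a and Stat3 a promoter of one is not shown under the others. The distal part is the largest at Jak3 (4106), Stat3 (2965) and Socs3 (2872), and is small at Jak2 (362) and Socs2 (301).

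The strongest distal site of all lay upstream of Jak3. It covered chr8:71664501-71666500, centred at -10.8 kb from the Jak3 start and over exon 3 of the neighbouring gene Unc13a, a synaptic protein gene. It held 1657 fragments (1578 to 1739), more than the promoter site of Jak3, and 35.4% of cells (33.7 to 37.1) had at least 1. Its top bin, with 1110 fragments, was at percentile 99.4 among the 85129 open distal bins of the genome. A second site at -8.05 kb, in intron 1 of Unc13a, held 649 fragments, and another at -15.3 kb, over exon 9, held 519. The promoter site of Unc13a itself, at -5.05 kb, held 1591. Which of the 2 genes these sites serve cannot be told apart here.

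At Socs3 the strongest distal site began just past the 3′ end of the gene (chr11:117963001-117966000, centred 4.69 kb downstream of the start). It held 1236 fragments (1168 to 1307) and was seen in 27.99% of cells, with a top bin at percentile 98.1. The next sites of Socs3 were smaller, with 304 fragments at 19.7 kb downstream and 216 at -25.1 kb in intron 1 of Pgs1. The densest 200 bases of the strongest sites of Jak3 (chr8:71665581-71665780, 624 fragments) and Socs3 (chr11:117963511-117963710, 438 fragments) are given on the plus strand of GRCm38, with capitals as above.
Jak3 site at -10.8 kb: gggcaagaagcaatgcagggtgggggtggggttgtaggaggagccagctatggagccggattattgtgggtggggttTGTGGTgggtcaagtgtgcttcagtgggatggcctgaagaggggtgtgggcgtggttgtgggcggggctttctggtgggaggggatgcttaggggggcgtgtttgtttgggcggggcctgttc
Socs3 site at 4.69 kb: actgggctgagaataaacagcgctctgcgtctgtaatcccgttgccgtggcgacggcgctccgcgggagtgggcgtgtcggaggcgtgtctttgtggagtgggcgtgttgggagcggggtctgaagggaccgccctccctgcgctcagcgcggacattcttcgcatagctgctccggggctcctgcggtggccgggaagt

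The 200 bases at Jak3 held 1 Runx string and those at Socs3 none of the 5 strings. Both were rich in G and C, at 62.0% and 66.5%.

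At Jak1 the strongest distal site stood alone at -27.5 kb between genes (chr4:101292001-101293500), with 730 fragments in 18.4% of cells. The other 14 lay within or behind the gene and were weaker. The largest of them were 193 fragments in intron 11, of which 76.2% were short, and 176 over exon 18. At Jak2 the largest distal site held 178 fragments over exon 3, followed by 106 in intron 2 and 40 at -23.6 kb. At Tyk2 the 3 largest were of similar size, with 333 fragments over exon 8 of the neighbour Cdc37, 322 at -30.02 kb and 306 at -22.02 kb.

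Stat3 had 14 distal sites, and the 2 strongest lay near its 3′ end. One over exon 18 (chr11:100893001-100894500, 45.8 kb from the start) held 691 fragments in 19.1% of cells, and one in intron 21 (47.8 kb) held 538. Both lie nearer to the 3′ end of Stat5a than to the Stat3 start. The starts of 3 retained-intron transcripts fall in the first and had 195, 111 and 7 fragments within 100 bp. The next were 2 sites of 385 fragments each, in intron 1 (4.04 kb) and over exon 1 of the neighbour Cavin1 (-29.7 kb). At Stat5b the largest held 300 fragments in intron 1 at 36.2 kb, followed by 129 and 51 in the same intron. At Socs1 the largest were 303 fragments at 16.5 kb, 252 at -29.5 kb and 136 at 13.3 kb. The sites of Socs2 held 169, 80 and 52 fragments.

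**Figure D4:**
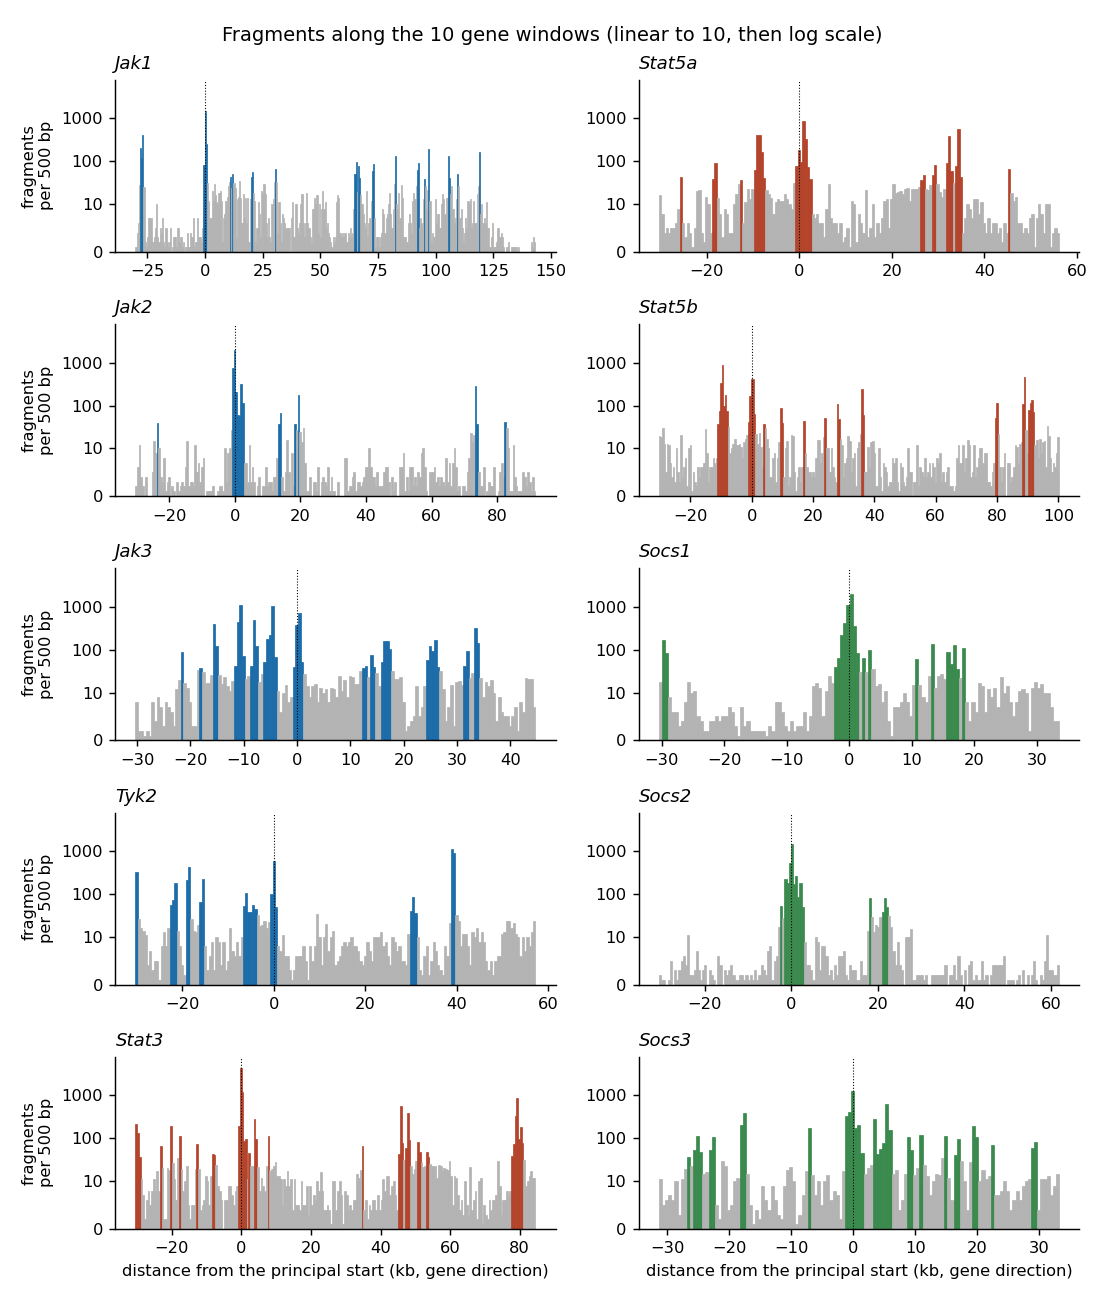
Fragments per 500-bp bin along each window of 30 kb on either side of the gene body, against distance from the principal start in kb in the direction of the gene (y axis linear to 10, then log; open bins coloured by role, others grey). The highest promoter bin holds 4462 fragments at Stat3, and at Jak3 a distal bin (1110) stands above the highest promoter bin (716); the bins near 33 kb in the Stat5a panel are the Stat3 sites of 691 and 538 fragments.

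Short fragments made up 52.6% of all fragments in open distal bins of the genome when pooled, and 45.5% in the median bin. Over the 73 distal sites of the members the share ranged from 15.4% to 76.2%, with a median of 50.3%. The strongest sites of Jak3, Stat3 and Socs3 had 60.2%, 61.8% and 59.9%.

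The palindrome bound by STAT proteins was looked for in the open bins of 9 members (Socs2 was left out, as it has no RefSeq entry here). It occurred in 10 of 50 promoter bins (20%) and 23 of 129 distal bins (17.8%), and in 2 of 30 bins at promoters of genes in the windows other than the 10 (6.67%). Over the genome it occurred in 10.6% of 38436 open promoter bins, 14.2% of 85129 open distal bins and 17.97% of 99883 sampled bins that were not open. These groups differ in base composition, with a median of 58.0%, 49.4% and 41.4% G and C. The median was 55.0% in promoter bins of the members, 51.2% in their distal bins and 56.4% in the bins at other promoters. In promoter bins of the members the Ets string occurred in 20% against 23.4% over the genome, the Runx string in 24% against 21.5%, the Gata string in 8% against 12.2% and the AP-1 string in 8% against 5.58%. In distal bins the Runx string occurred in 33.3% against 37.0%, the Gata string in 17.1% against 21.5%, the Ets string in 12.4% against 9.93% and the AP-1 string in 11.6% against 10.6%.

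Among the 9 members searched, which leave out Socs2, the matches with the most fragments around them were those of the feedback gene Socs3. These counts were not scaled to the openness of the site around a match. Of 40 matches, the highest lay at -57 bp from the principal Socs3 start (chr11:117969239-117969247) with 325 fragments within 50 bp. The next lay at -330 bp (chr11:117969512-117969520) with 186, and is the palindrome in the Socs3 promoter above. The third lay in the strong downstream site (chr11:117965740-117965748) with 123, and the fourth at -449 bp from the Socs1 start (chr16:10785981-10785989) with 96. They are shown on the plus strand with 10 bases on either side and the palindrome in capitals.
Socs3, -57 bp: cgccccccgaTTCCTGGAActgcccggcc
Socs3, -330 bp: cccccctcccTTCTAAGAAggctggtttc
Socs3, downstream site: agtctagactTTCTCGGAAcacctccctg
Socs1, -449 bp: atctcgacccTTCTTGGAAcccggctagc

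In the RefSeq promoters of 300 bases the palindrome was present in 1 of 11 entries of the members, that of Socs3, and in 8.30% of 32851 entries in all. Ets strings were present in 2 of 11 entries (14.9% of all) and Runx strings in 1 (16.8%). Gata and AP-1 strings were in 0 of 11 (11.2% and 5.20%). Cish, a further SOCS family gene and a known STAT5 target, had 2 palindromes at its RefSeq start (chr9:107296409-107296708, plus strand, 631 fragments, seen in 17.4% of cells), and its promoter is shown for this pair.
Cish promoter: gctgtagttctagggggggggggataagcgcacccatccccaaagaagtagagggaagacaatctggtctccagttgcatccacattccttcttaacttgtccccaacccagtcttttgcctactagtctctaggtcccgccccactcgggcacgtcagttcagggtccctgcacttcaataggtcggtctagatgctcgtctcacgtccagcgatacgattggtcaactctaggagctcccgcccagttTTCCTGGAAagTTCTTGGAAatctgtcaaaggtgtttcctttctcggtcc

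Of the other 43 genes of the pathway, 42 promoters (97.7%) were open, beside 61.3% of all protein-coding promoters, and their median was 37.8 fpm. The gene of the ligand, Thpo, had 3.42 (2.85 to 4.07). Thrombopoietin is made mainly in the liver.

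Among the other STAT genes, Stat2, which answers to interferon, had 42.3, Stat6 had 16.1, and Stat4 was the 1 promoter not open, at 0.162. The other SOCS family genes ran from Socs5 at 61.3, Socs4 at 50.7, Socs7 at 44.6 and Socs6 at 36.2 down to Cish at 10.3. The window of Cish, however, had 26.9% of its bins open, and the RefSeq start of Cish lay outside the 1000 bp that gave 10.3. Of 11 genes that restrain JAK or STAT proteins, all 11 were open. The highest were Sh2b3 (115.7, 112 to 119), an adaptor that holds cytokine signalling through Jak2 in check, Ptpn2 (86.3), a phosphatase of JAK and STAT proteins, and Pias4 (78.8). The lowest were Ptprc (8.24), which encodes CD45, Ptpn6 (12.9) and Pias3 (13.2).

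All 15 adaptors, kinases and other signalling proteins below the receptor had open promoters. Map2k1 (75.8), Crkl (61.7) and Ptpn11 (57.9) were the highest, and Lyn (11.2), Sos1 (16.99) and Pik3ca (19.8) the lowest. All 8 STAT target genes were open, with Pim1 at 114 (111 to 118), Bcl2l1 at 75.3 and Mcl1 at 57.8 the highest, and Osm at 4.98, Pim2 at 13.2 and Id1 at 13.4 the lowest. Stat3 at 154 was above each of the 43.

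**Figure D5:**
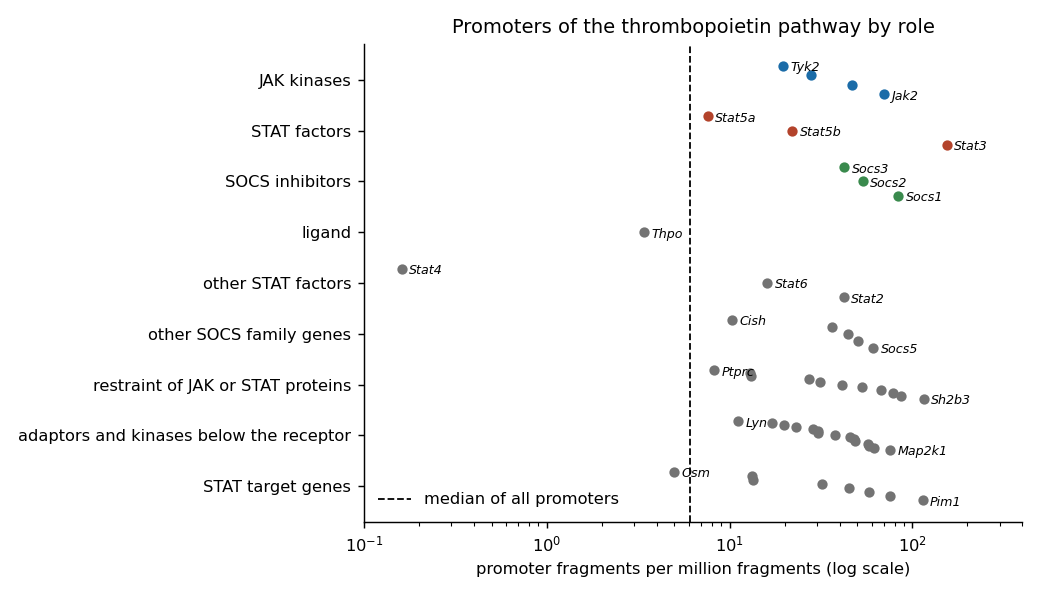
Promoter levels (fpm over 1000 bp, log scale) of the 10 genes in colour and of the 43 other pathway genes in grey, by role; each point is 1 gene, with genes named at the ends of each row, and the dashed line is the median of all promoters. Only Stat4 (0.162), Thpo (3.42) and Osm (4.98) lie to the left of the line at 6.06.

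The study asked how platelet-biased HSCs (PLT) differ from multilineage HSCs (MUL). It classed clusters of cells by accessible regions of clones, whereas the score used here counts fragments over named genes and is a different measure. Each cell was scored by the log2 ratio of its fragments on 65 PLT genes to those on 58 MUL genes, taken by name from the study's clone comparison; none of the 10 members was among them. The cells with the highest and the lowest scores, 1036 in each group, were compared, and 1082 cells lay within 0.1 of a cut, so the groups are ranges of a score and not types of cell. In the high group the ratio was 2.08 and in the low group 1.096, and since these values chose the cells they are a description. When the score was made on odd-numbered chromosomes and read on the others, the ratio was 1.79 against 1.72, a log2 difference of 0.06 (counting interval 0.01 to 0.12). On chromosomes that did not make it, the score thus separated the cells little. Differences between the groups below therefore say little of PLT and MUL HSCs.

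Summed over the windows of the 10 genes, 1685 fpm lay there in the high group and 1663 in the low group, a log2 ratio of 0.02 (-0.01 to 0.05, here and below a normal approximation to the counting interval). It was -0.044 (-0.10 to 0.01) in cells with over 10000 fragments in peaks and 0.04 (0.01 to 0.07) in open bins only. None of the 10 windows passed a 1.2-fold difference either way, which 2.16% of 16306 protein-coding windows did, and single windows ran from -0.03 at Jak1 to 0.09 at Socs2. At promoters the values spread more. Of the 10 promoters 2 (Jak3 and Stat5b) passed a 1.2-fold difference either way, beside 13.3% of 11879 protein-coding promoters with at least 100 fragments in both groups together (a minimum chosen after seeing the data, which all 10 met). Jak3 had 25.7 fpm in the high group and 31.7 in the low group (log2 -0.30, -0.52 to -0.08). Stat5b had 24.3 and 20.2 (0.27, 0.02 to 0.51), Socs3 46.3 and 40 (0.21, 0.04 to 0.39) and Socs1 90.9 and 82.6 (0.14, 0.01 to 0.26). Stat3 had 159 and 157 (0.02, -0.08 to 0.11) and Jak2 69.2 and 71.3 (-0.04, -0.18 to 0.09). Stat5a had 8.33 and 7.01 (0.25, -0.17 to 0.67), Socs2 54.8 and 49.2 (0.16, -0.0037 to 0.32), Jak1 45.98 and 47.7 (-0.05, -0.22 to 0.12) and Tyk2 18.99 and 19.06 (-0.0053, -0.27 to 0.26). Summed over the 10 promoters the level was 543.1 in the high group and 525.5 in the low group (0.05, -0.0022 to 0.10). These intervals cover counting error only, leave out the spread between preparations and are no test between the groups.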

How the data were processed

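Single-cell ATAC fragments of 1 HSC preparation were analysed. Per the file headers reads were mapped to mm10 by the authors in Cell Ranger ARC 2.0.2, which also collapses duplicates and calls cells. They deposited counts, not normalized: read pairs per unique fragment, and fragments and UMIs per barcode. Called cells with over 3000 fragments in peaks were kept; doublets were not removed. The antibody tag matrix, which has no barcodes or tag names, and RNA counts per gene were not used here. Each fragment was counted once at its midpoint, using numpy 2.4.6, pandas 2.3.3 and scipy 1.17.1 under Python 3.11.15 (figures: matplotlib 3.10.9). No fragment ended beyond its chromosome in GRCm38, whose sequence and GENCODE vM21 genes were used; 32619 of 32619 RefSeq promoters on these chromosomes equalled the genome read here. The principal transcript is that tagged by APPRIS, the lowest level and then the longest. A cell barcode is shared by ATAC and RNA, and only ATAC values entered. Of 129 clone genes 123 matched, 3 by an older symbol.

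Members and lists were chosen with earlier results of these data known. Text names the 10 members, up to 3 distal sites each with the most fragments, Cish, and the 3 highest and 3 lowest promoters of each pathway group of 6 or more genes (all genes of smaller groups). In the pathway and marker lists 2 genes are not reported here. The counting rules were tested on simulated data. Alternatives changed the cell filter, the counting of fragments, their length, depth, thresholds, bin edges, flank and start; 1 was added after seeing the data. Depth limits single promoters: 1 fragment is 0.0269 fpm, and 3 fragments 0.0808 fpm. PCR duplicates were collapsed by position, so intervals cover counting error only.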

Additional observations from a re-analysis of the deposited data

How the results depend on the processing

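The 10 members' promoters stayed open in every alternative run, and the number of distal sites (73) stayed within 1.5 times. The open bins fell from 223 to 137 when a bin had to hold 10 times the mean, where the genome share was 1.39%. The distal share of 37.8% was 39.4% in the 550 cells with over 10000 fragments in peaks, 34.6% with short fragments only, 40.03% at 3 times the mean, 34.6% at 10 times, 25.2% with a flank of 10 kb and 37.1% when sites within 1500 bp of a start counted as promoters. The log2 ratio of the members between cells of high and low PLT/MUL score was -0.044 (-0.10 to 0.01) in the cells with over 10000 fragments in peaks, and 0.04 (0.01 to 0.07) in open bins only. For promoter levels, Stat3 was first in each alternative, and Stat5a last in each except the start with the most fragments. Counting each cell at most once lowered all 10 levels, from 154 to 67.3 at Stat3 and from 83.9 to 49.03 at Socs1, and short fragments alone gave Stat3 266. No paired analysis of ATAC and RNA was made, although they share cell barcodes, because only the ATAC library was used. With 1 ATAC library none could be left out. Levels are limited by 1 preparation, by start annotation and by the fixed flank, and an open site says nothing of which gene it serves or of RNA.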
